A study of Mus musculus with 6 samples.

Results

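The TGF-beta, BMP and activin family was followed as 51 genes of the 13912 in the table. The libraries came from cultured 4T1 cells, a mouse mammary carcinoma line, and from cells sorted from 4T1 tumours. Members were chosen by a rule on gene names, set with earlier results of these data known. The names are those of the TGF-beta, BMP, activin, inhibin and GDF ligands, their receptors and the SMAD proteins. They also cover the latent TGF-beta binding proteins, the SMURF ligases and the follistatin, gremlin, noggin and chordin antagonists. GENCODE M21 lists 69 protein-coding genes under these names, and the other 18, Bmp4 among them, were not analysed here. By role there were 15 ligands, 12 receptors, 7 SMADs, 8 antagonists and relatives of follistatin, 4 latent TGF-beta binding proteins and 5 other genes that the names bring in.

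RNA was sequenced in 2 groups of 3 libraries, both of the 4T1-Luc2-RFP line from balb/c mice, which carries luciferase and a red fluorescent protein by its name. The tumour group held cells isolated by fluorescence-activated sorting from MIND tumours of the mammary glands, and the series title describes the model as intraductal. The titles of all 3 tumour libraries begin with the word Right. The cultured group held the same line, never injected. The labels give no sorting gate, no age of the mice or tumours, and do not say whether the 3 libraries of each group are separate mice or dishes. The p-values therefore reflect how far these libraries differ among themselves, and that spread can be technical.

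Ligands of this family bind pairs of type I and type II receptor kinases. TGF-beta and activin receptors act mainly through SMAD2 and SMAD3, BMP receptors through SMAD1 and SMAD5, and both kinds of SMAD enter the nucleus with SMAD4. SMAD6 and SMAD7 are inhibitory SMADs that the pathway induces, and SMURF1 and SMURF2 are ubiquitin ligases that remove SMADs and receptors. TGF-beta is secreted in a latent form held in the matrix by LTBP proteins, while gremlin, noggin, chordin and follistatin capture ligands outside the cell. In mammary carcinoma the pathway is known both for growth arrest and for invasion.

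The 6 libraries held 35448588 to 41469090 reads. Levels are CPM, the reads of a gene per 1000000 reads of the library total after TMM scaling, a correction for differences in library composition. Changes are differences of mean log2 CPM, tumour minus cultured, with the standard error (SE) from limma. A gene was called at an adjusted p under 0.05 (limma, two-sided, Benjamini-Hochberg over all 13912 genes). Of all genes tested, 48.2% were called, 29.5% higher and 18.8% lower in tumour libraries. The tumour libraries lay wholly above the cultured ones for 34.6% of genes and wholly below for 25.2%. The deposited scaling put the median change of all genes at 0.08, median centring of the libraries put it at -0.14, and quantile normalization at -0.32. Epithelial markers were present in both groups, at a summed 2451 to 2936 CPM in tumour libraries and 2165 to 2737 CPM in cultured libraries. Markers of host cells were also present in the sorted cells. The 12 macrophage markers summed to 5941 to 8664 CPM in tumour libraries and 14.0 to 26.7 CPM in cultured libraries. The 7 neutrophil markers summed to 1329 to 3885 CPM in tumour libraries and 85.5 to 100 CPM in cultured libraries, of which the mean of Mmp9 made up 91.5 CPM. Of 10 lymphocyte markers 2 were in the table, Cd4 and Cd8a, at a summed 3.40 to 4.01 CPM in tumour libraries and 0 reads in cultured libraries. The 11 fibroblast markers summed to 6306 to 8144 CPM in tumour libraries and 23.7 to 51.7 CPM in cultured libraries. Of that cultured sum the mean of Pdgfra made up 31.8 CPM. More cells of a type and more RNA per cell cannot be told apart in such libraries. Every tumour level and change given here is of the sorted cells as a whole, RNA of host cells included. The part of the 4T1 cells in it was not tested for any gene.

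**Figure D1:**
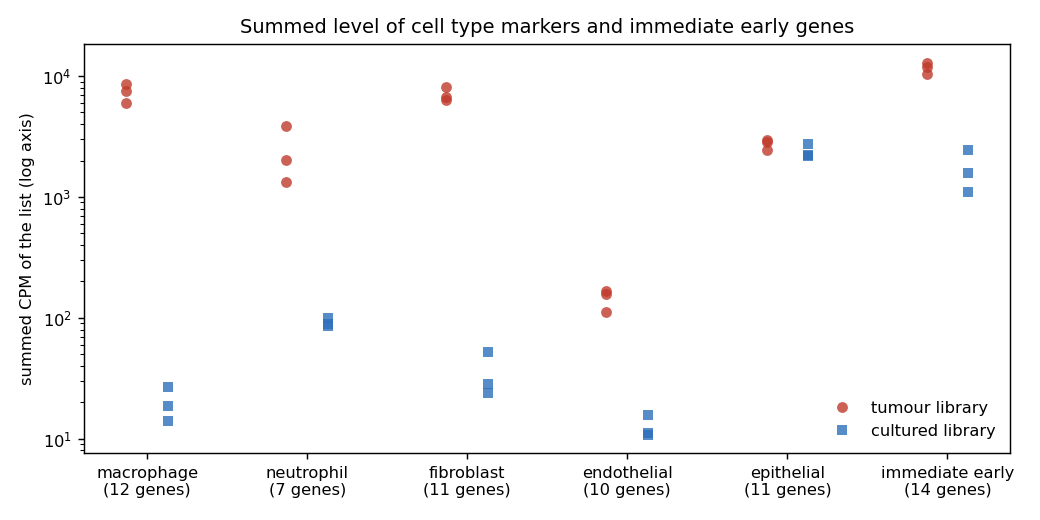
Summed CPM (log axis) of 5 cell type marker lists and of immediate early genes in every library, with 3 tumour libraries (circles) left of 3 cultured libraries (squares). Macrophage, neutrophil, fibroblast and endothelial markers lay above every cultured library in all 3 tumour libraries, while the epithelial sums of the groups overlapped.

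Of the 51 family genes, 25 were higher in tumour libraries, 4 were lower and 22 were not called, so 56.9% were called, beside 48.2% of all genes (29.5% higher, 18.8% lower). Groups did not overlap for 27 members higher in tumour libraries (34.6% of all genes) and 6 lower (25.2%), beside 59.8% of all genes in either direction. Higher were 8 of 15 ligands, 5 of 12 receptors, 2 of 7 SMADs, 6 of 8 antagonists, 3 of 4 latent TGF-beta binding proteins and Bmp1. Lower were Smad5, Nog, Fstl3 and Smurf1. The median change was 0.68, against 0.08 over all genes, and was 0.46 with median centring and 0.38 after quantile normalization. No gene in the table had fewer than 61 reads over the 6 libraries. For 12 members the cultured libraries together held fewer reads than that, so those that were in the table only through their tumour reads had to be higher there. Among these were Bmp2, Gdf3, Inhbb, Gdf6, Gdf10, Gdf9, Acvrl1, Bmpr1b, Grem1, Chrdl1 and Chrd, and 11 of the 12, all but Gdf9, were among the 25. The other 14 called higher came from 39 members with at least 61 cultured reads. The share called among all genes with at least 61 cultured reads was not computed, so this count has no background share. By the same fit, 15 of the 36 members with a mean of at least 0 log2 CPM were higher and 3 lower. Of all 11648 genes at that level, 2591 were higher and 2523 lower. With each library centred on its median 24 members were higher and 9 lower, and after quantile normalization 19 were higher and 13 lower. Quantile normalization left 5 ligands higher and 4 lower, and 4 antagonists higher and 3 lower, while all 3 calls among the latent TGF-beta binding proteins were made under each of the 3 scalings.

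**Figure D2:**
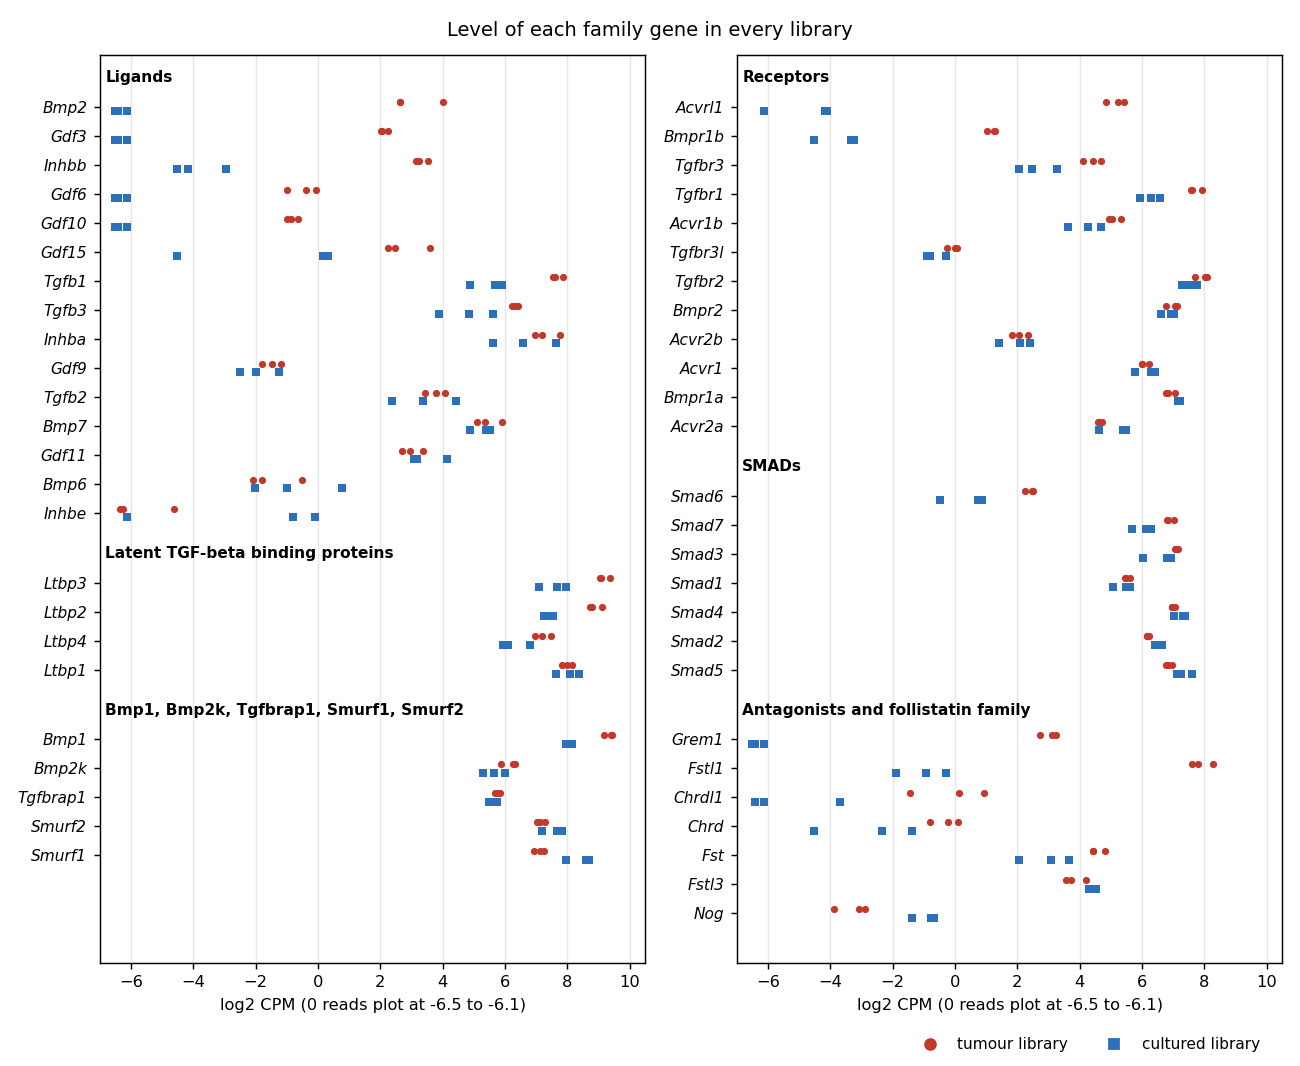
Log2 CPM of the family genes described here in every library, grouped by role, with tumour libraries as circles drawn just above cultured libraries as squares. Several antagonists and ligands, such as Grem1, Bmp2 and Gdf3, stood at 0 reads in all 3 cultured libraries, while all 7 SMADs had reads in every library of both groups.

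The TGF-beta ligands Tgfb1 and Tgfb3 were higher in tumour libraries, and Tgfb2 was not called. Tgfb1, on chromosome 7 from 25687002 to 25705077 of GRCm38, encodes the founding member of the family, a suppressor of immune cells and inducer of matrix. It stood at 233, 186 and 195 CPM in tumour libraries 1, 2 and 3, against 29.6, 51.6 and 59.7 CPM in cultured libraries 1, 2 and 3. The lowest tumour library was above the highest cultured one, with a log2 change of 2.18 (SE 0.27, adjusted p = 0.000338), a 4.36-fold ratio of means. Tgfb3, on chromosome 12 from 86056745 to 86079041, is a ligand of the same receptors. It stood at 74.9, 85.4 and 79.8 CPM in tumour libraries, against 28.4, 49.1 and 14.7 CPM in cultured libraries. The groups did not overlap, the cultured libraries were spread over a wider range than the tumour libraries, and the change was 1.55 (SE 0.39, adjusted p = 0.0132). Of its exon bases 12.4% overlap transcripts annotated on the other strand, and the sources used here do not say if counting took account of strand. Tgfb2, the third isoform, stood at 13.8, 16.7 and 10.7 CPM in tumour libraries and 21.7, 10.2 and 5.11 CPM in cultured libraries, which overlapped. Its change was 0.37 (SE 0.49, adjusted p = 0.563).

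Divided by exon length, the mean level of Tgfb1 was 40.6 ± 4.99 CPM per kb in tumour libraries and 9.31 ± 3.09 in cultured libraries (SD, n = 3 each). Tgfb3 followed at 23.7 ± 1.56 CPM per kb in tumour libraries and 9.09 ± 5.13 in cultured libraries (SD, n = 3 each). Tgfb2 was lowest, at 2.37 ± 0.523 CPM per kb in tumour libraries and 2.13 ± 1.46 in cultured libraries (SD, n = 3 each). In tumour libraries the levels per length of the isoforms were apart by more than their spread, while in culture those of Tgfb1 and Tgfb3 were not. Tgfb1 made up 56.7% to 65.4% of the summed level per length of these 3 isoforms in tumour libraries and 32.6% to 69.4% in cultured libraries, so its share overlapped between the groups. Which transcripts the authors counted was not given, so lengths are those of the GENCODE exons.

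Among activin subunits, Inhbb was higher in tumour libraries and Inhba was not called. Inhba encodes the beta A subunit of activin A. It stood at 216, 123 and 144 CPM in tumour libraries and 198, 48.8 and 96.1 CPM in cultured libraries, and the groups overlapped. Its change was 0.68 (SE 0.48, adjusted p = 0.272), and without cultured library 1, the highest of its group, it was called at 1.19 (adjusted p = 0.0378). Inhbb encodes the beta B subunit of activin B and stood at 11.5, 8.74 and 9.50 CPM in tumour libraries. The cultured libraries held 8 reads of it in all, and its change was 7.19 (SE 0.47, adjusted p = 9.70e-06). Inhbb was thus in the table through its tumour reads, so its higher level there is not independent of its presence. Inhbe, an activin subunit known mainly from liver, had 1 read over the tumour libraries and 66 over the cultured libraries. Those cultured reads lay in libraries 1 and 2, with 0 in library 3, and its change of -3.40 was not called (SE 1.49, adjusted p = 0.0966). Inhbe was called lower without cultured library 3 (adjusted p = 0.000789), with library weights (adjusted p = 0.00447) and after quantile normalization (adjusted p = 0.00346).

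Of the BMP ligands in the table, Bmp7 was expressed in both groups and Bmp2 had reads in tumour libraries alone. Bmp7, an activator of SMAD1 and SMAD5, stood at 40.6, 59.3 and 34.5 CPM in tumour libraries and 29.6, 46.0 and 41.4 CPM in cultured libraries. The groups overlapped, and the change was 0.19 (SE 0.26, adjusted p = 0.58). Bmp2, a bone-inducing ligand, stood at 6.13, 6.15 and 15.9 CPM in tumour libraries and had 0 reads in all 3 cultured libraries. It was at least 382-fold higher, against a floor of 3 reads over the cultured group, and tumour library 3 was the highest. Bmp6 had few reads in either group, 45 in tumour libraries and 105 in cultured libraries, and was not called as deposited (change -0.72, adjusted p = 0.468). After quantile normalization Bmp6 was called lower, at -4.34 (adjusted p = 0.000167).

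Of 6 growth and differentiation factors in the table, Gdf3, Gdf6, Gdf10 and Gdf15 were called higher in tumour libraries. Gdf3, a relative of Nodal, stood at 4.07, 4.73 and 4.14 CPM in tumour libraries and had 0 reads in culture, so it was at least 177-fold higher. Gdf6 and Gdf10 also had 0 cultured reads, and had 84 and 64 reads over the tumour libraries, at least 29.8-fold and 22.7-fold higher. The calls of Gdf6 and Gdf10 were lost after quantile normalization, with adjusted p = 0.137 for Gdf6 and adjusted p = 0.708 for Gdf10. Gdf15, a stress-induced factor that acts on a receptor outside this family, stood at 4.69, 5.54 and 12.1 CPM in tumour libraries and 1.24, 1.10 and 0.0287 CPM in cultured libraries. Cultured library 3 was far below the other cultured libraries, and tumour library 3 the highest. Its change was 4.12 (SE 1.23, adjusted p = 0.0262), and the call was lost without tumour library 1 (adjusted p = 0.0517), 2 (adjusted p = 0.0665) or 3 (adjusted p = 0.0875). Gdf11 stood at 8.15 ± 2.01 CPM in tumour libraries and 11.7 ± 5.19 CPM in cultured libraries (SD, n = 3 each), and Gdf9, an oocyte factor, had 40 reads in tumour libraries and 32 in cultured libraries. Neither was called as deposited, while after quantile normalization both were called lower, Gdf11 at -1.33 (adjusted p = 0.0169) and Gdf9 at -3.41 (adjusted p = 0.000261).

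Of the genes of latent TGF-beta binding proteins, Ltbp2, Ltbp3 and Ltbp4 were called higher in tumour libraries and Ltbp1 was not called. Ltbp3, on chromosome 19 from 5740904 to 5758532, is needed for secretion of latent TGF-beta. It stood at 529, 658 and 542 CPM in tumour libraries, against 204, 246 and 135 CPM in cultured libraries. The groups did not overlap, and the change was 1.60 (SE 0.24, adjusted p = 0.00102). Ltbp2, which binds microfibrils but not latent TGF-beta itself, stood at 440, 553 and 423 CPM in tumour libraries, against 153, 163 and 184 CPM in cultured libraries. Its change was 1.50 (SE 0.17, adjusted p = 0.000198), again with no overlap. Ltbp4, a binder of latent TGF-beta 1, stood at 125, 176 and 144 CPM in tumour libraries, against 61.3, 111 and 68.7 CPM in cultured libraries, with cultured library 2 the highest of its group. Its change was 0.92 (SE 0.25, adjusted p = 0.0182), and the call was lost without tumour library 2 (adjusted p = 0.0699), tumour library 3 (adjusted p = 0.0562) or cultured library 1 (adjusted p = 0.0578). Ltbp1, the most studied carrier of latent TGF-beta, stood at 226, 285 and 251 CPM in tumour libraries and 329, 271 and 196 CPM in cultured libraries. Its groups overlapped, with a change of -0.04 (SE 0.21, adjusted p = 0.902).

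Per length, mean levels in tumour libraries were 63.6 CPM per kb for Ltbp3 and 57.7 for Ltbp2, which did not differ beyond their spread, and 23.8 for Ltbp1 and 22.9 for Ltbp4, which likewise did not. In cultured libraries Ltbp1 came first at 24.8 CPM per kb, followed by Ltbp3 at 21.5, Ltbp2 at 20.3 and Ltbp4 at 12.5, and the first 3 lay within the spread of their neighbours. Bmp1, which is not a ligand despite its name but a metalloprotease that cuts procollagen, LTBP1 and chordin, stood at 575, 685 and 670 CPM in tumour libraries, against 249, 269 and 284 CPM in cultured libraries. Its change was 1.26 (SE 0.15, adjusted p = 0.000329), with no overlap.

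**Figure D3:**
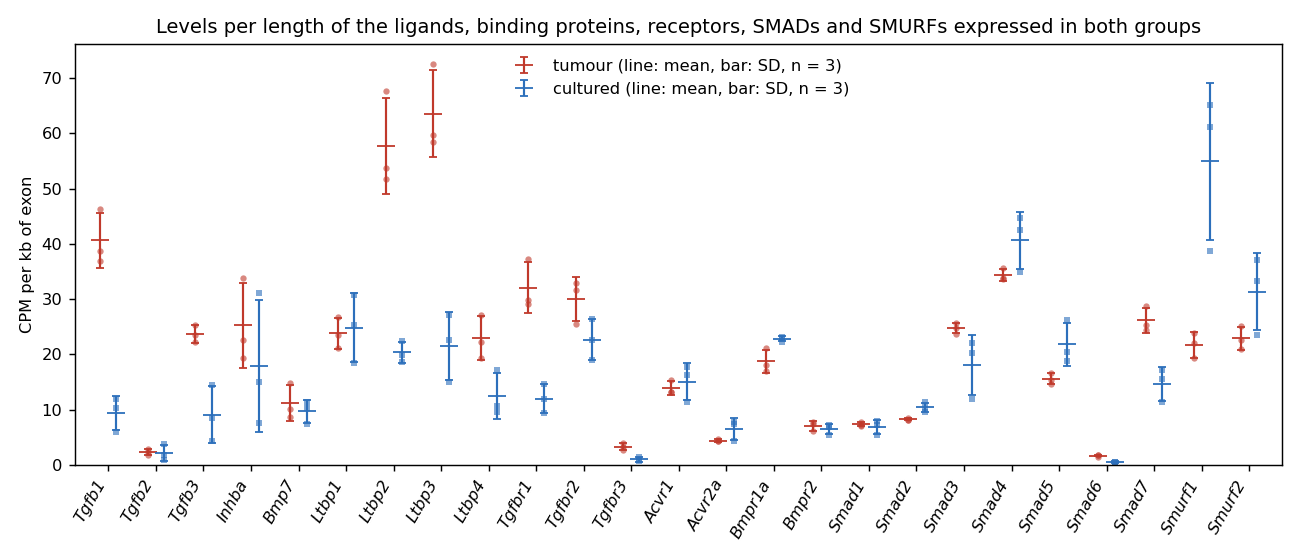
Levels per length (CPM per kb of exon) of 25 family genes, with 3 tumour libraries left of 3 cultured libraries for each gene, the mean as a line and the SD as a bar (n = 3). Tgfb1, Tgfb3, Ltbp2, Ltbp3 and Tgfbr1 lay higher in every tumour library than in any cultured library, Smurf1 lay lower, and Bmpr2, Acvr1 and Ltbp1 overlapped.

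Among the TGF-beta receptors, Tgfbr1 and the co-receptor Tgfbr3 were higher in tumour libraries and Tgfbr2 was not called. Tgfbr1, on chromosome 4 from 47353222 to 47414931, encodes the type I kinase that phosphorylates SMAD2 and SMAD3. It stood at 244, 195 and 190 CPM in tumour libraries, against 61.1, 95.7 and 77.8 CPM in cultured libraries. The groups were apart, with a change of 1.44 (SE 0.20, adjusted p = 0.000711). Tgfbr2, the type II receptor that binds TGF-beta first, stood at 259, 208 and 269 CPM in tumour libraries and 185, 155 and 216 CPM in cultured libraries. These ranges overlapped, and the change was 0.41 (SE 0.18, adjusted p = 0.1); without cultured library 3 it was 0.53 and was called (adjusted p = 0.028), as it was with library weights (adjusted p = 0.0167). Tgfbr3, betaglycan, which presents TGF-beta 2 and inhibin, stood at 17.2, 21.6 and 25.5 CPM in tumour libraries, against 4.13, 9.61 and 5.48 CPM in cultured libraries, a change of 1.81 (SE 0.34, adjusted p = 0.0033). Per length, Tgfbr2 and Tgfbr1 did not differ beyond their spread in tumour libraries, at 30.0 ± 3.99 and 32.1 ± 4.55 CPM per kb (SD, n = 3). In cultured libraries Tgfbr2 was above Tgfbr1, at 22.6 ± 3.75 and 12.0 ± 2.64 CPM per kb (SD, n = 3).

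Acvrl1 (ALK1), a type I receptor of endothelial cells that binds BMP9, stood at 42.6, 28.5 and 37.7 CPM in tumour libraries. The cultured libraries held 4 reads of it in all. Its change was 9.96 (SE 0.58, adjusted p = 5.38e-06). With so few cultured reads, Acvrl1 was in the table through its tumour reads, so its higher level there is not independent of its presence. In the same libraries the 10 endothelial markers summed to 112 to 166 CPM in tumour libraries and 10.8 to 15.7 CPM in cultured libraries, with Emcn, Erg and Cldn5 at 0 reads in culture. Of these 10, 9 were called higher, all but Egfl7, whose cultured mean was 10.2 CPM. Both Acvrl1 and the endothelial sum were lowest in tumour library 2. The macrophage, neutrophil and fibroblast sums were lowest in that library too. The part of endothelial cells in the level of Acvrl1 was not tested. Bmpr1b, a type I BMP receptor, had 262 reads over the tumour libraries and 9 over the cultured libraries and was called at 4.89 (SE 0.45, adjusted p = 6.73e-05). Bmpr1b was likewise in the table through its tumour reads, which fixed the direction of its call.

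The activin and BMP receptors expressed in both groups mostly did not pass the test. Acvr1b (ALK4), the type I receptor of activin, stood at 40.2, 30.4 and 32.7 CPM in tumour libraries, against 19.3, 25.5 and 12.3 CPM in cultured libraries, which did not overlap. Its change of 0.91 was called (SE 0.28, adjusted p = 0.0305), but not with each library centred on its median (adjusted p = 0.0668), nor without tumour library 1 (adjusted p = 0.115), 2 (adjusted p = 0.0602) or 3 (adjusted p = 0.0814) or cultured library 1 (adjusted p = 0.0604). Bmpr1a, the main type I BMP receptor, stood at 115, 134 and 108 CPM in tumour libraries and 147, 146 and 142 CPM in cultured libraries. All tumour libraries were below the cultured ones, yet the change of -0.29 was not called (SE 0.14, adjusted p = 0.125). Bmpr1a was called lower with median centring, at -0.51 (adjusted p = 0.0176), and with library weights, at -0.38 (adjusted p = 0.0435). Bmpr2, the type II BMP receptor, stood at 133, 139 and 109 CPM in tumour libraries and 122, 129 and 96.7 CPM in cultured libraries, a change of 0.13 (SE 0.17, adjusted p = 0.551). Acvr1 (ALK2), a type I receptor for BMPs, overlapped at 63.4 to 74.3 CPM in tumour libraries and 54.4 to 85.4 CPM in cultured libraries (adjusted p = 0.727). The type II activin receptor Acvr2a stood at 26.4, 24.1 and 24.3 CPM in tumour libraries and 42.3, 44.4 and 24.3 CPM in cultured libraries. Cultured library 3 lay with the tumour libraries. The change of -0.52 was not called (SE 0.25, adjusted p = 0.122), and without cultured library 3 it was -0.80 and called (adjusted p = 0.00225). Acvr2a was also called lower with median centring (adjusted p = 0.0308), quantile normalization (adjusted p = 0.0214) and library weights (adjusted p = 0.00699). Acvr2b, its close relative, stood at 4.22 ± 0.75 CPM in tumour libraries and 4.03 ± 1.31 CPM in cultured libraries (SD, n = 3 each) and was not called as deposited, though after quantile normalization it was called lower at -1.50 (adjusted p = 0.0049). Tgfbr3l, whose exons overlap another annotated gene over 52.2% of their length, had 109 reads in tumour libraries and 76 in cultured libraries and was not called as deposited, while after quantile normalization it was called lower at -2.72 (adjusted p = 0.000834).

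**Figure D4:**
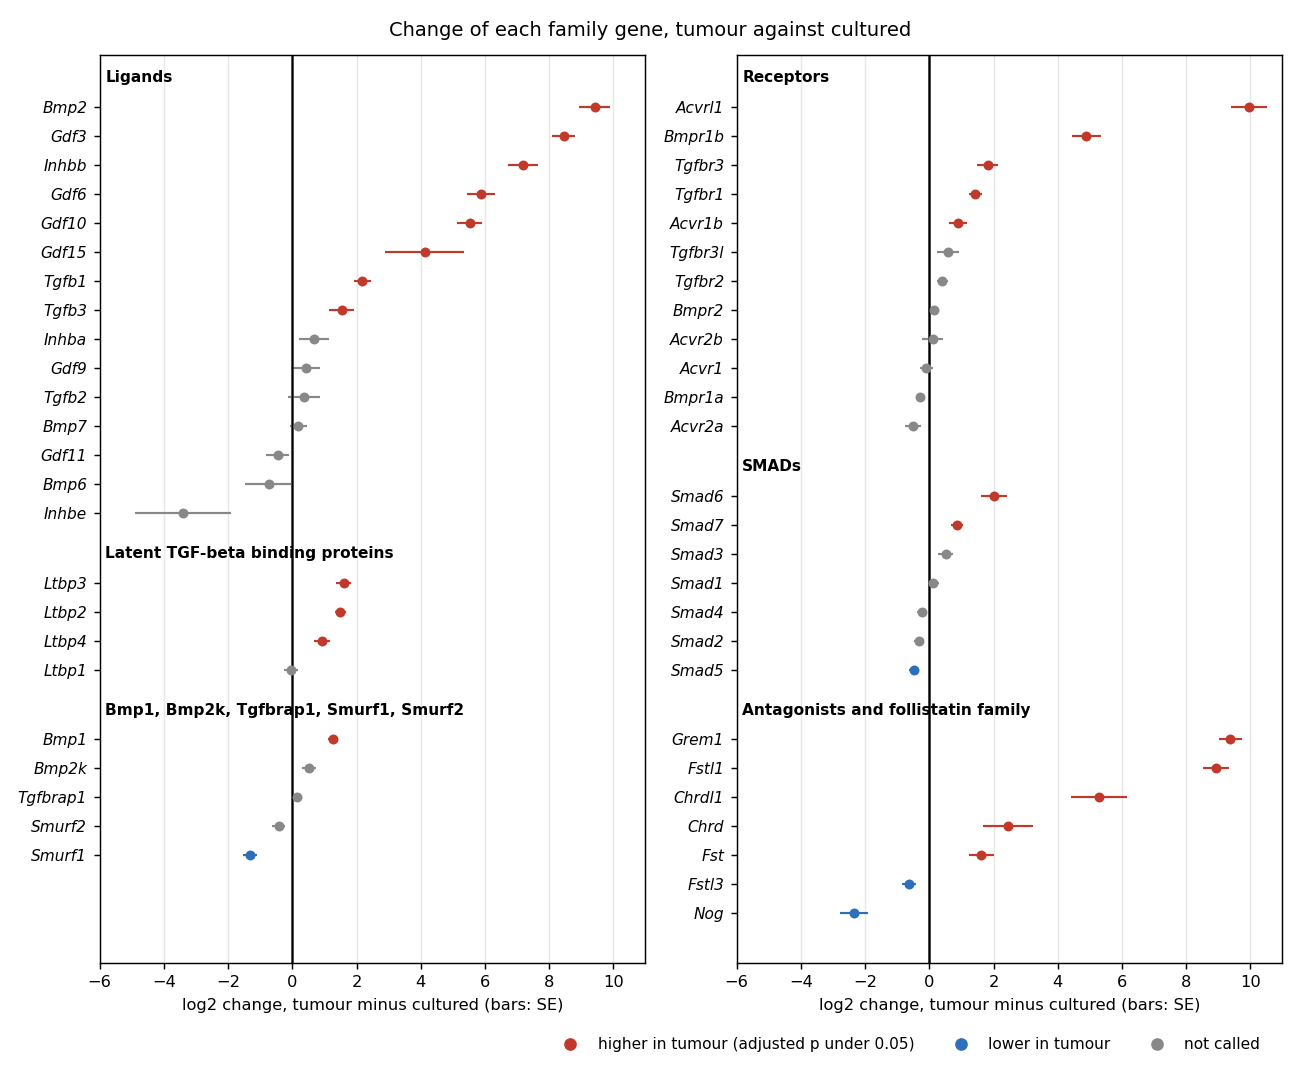
Log2 change of the family genes described here, tumour minus cultured, with bars of 1 SE, grouped by role and coloured by call at adjusted p under 0.05. Changes of SMADs lay between -0.47 for Smad5 and 2.03 for Smad6, while those of ligands and antagonists reached 9.42 for Bmp2 and 9.37 for Grem1.

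Both inhibitory SMADs were higher in tumour libraries, while of the signalling SMADs Smad5 alone was called, and was lower. Smad2 and Smad3 carry the TGF-beta and activin signal. Smad3 stood at 132, 137 and 142 CPM in tumour libraries and 112, 122 and 65.5 CPM in cultured libraries. The tumour libraries were all above the cultured ones, with a change of 0.51 that was not called (SE 0.24, adjusted p = 0.117). Smad2 stood at 74.8, 71.2 and 71.7 CPM in tumour libraries and 90.5, 84.3 and 99.3 CPM in cultured libraries. Here the tumour libraries were all below, with a change of -0.33 that was not called (SE 0.13, adjusted p = 0.0775). Smad4, the partner of both branches, stood at 125, 132 and 125 CPM in tumour libraries and 158, 166 and 129 CPM in cultured libraries (change -0.24, SE 0.15, adjusted p = 0.22). Smad1 stood at 45.1, 48.4 and 44.1 CPM in tumour libraries and 44.8, 49.2 and 33.7 CPM in cultured libraries (change 0.12, SE 0.18, adjusted p = 0.599). Smad5, the other BMP SMAD, stood at 109, 124 and 115 CPM in tumour libraries, against 195, 140 and 152 CPM in cultured libraries. It was called lower at -0.47 (SE 0.17, adjusted p = 0.0471). That call was lost without tumour library 1 (adjusted p = 0.163), 2 (adjusted p = 0.0798) or 3 (adjusted p = 0.142), without cultured library 1 (adjusted p = 0.108), without a variance trend (adjusted p = 0.083), with voom weights (adjusted p = 0.0527) and with the filter on low values (adjusted p = 0.0547). With each library centred on its median, Smad2 (adjusted p = 0.0124) and Smad4 (adjusted p = 0.0275) were called lower too. Smad2 was also called lower after quantile normalization (adjusted p = 0.0403), and Smad4 without cultured library 3 (adjusted p = 0.0329).

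Smad7, which blocks type I receptors of all branches, stood at 111, 130 and 114 CPM in tumour libraries, against 70.0, 51.0 and 77.4 CPM in cultured libraries. The groups were apart, and the change was 0.85 (SE 0.19, adjusted p = 0.00694). Smad6, which acts mainly on the BMP branch, stood at 4.75, 5.59 and 5.54 CPM in tumour libraries, against 0.704, 1.81 and 1.67 CPM in cultured libraries. Its change was 2.03 (SE 0.41, adjusted p = 0.00458), and the call was lost after quantile normalization (change 0.17, adjusted p = 0.699). Per length Smad7 stood at 26.1 ± 2.24 CPM per kb in tumour libraries and 14.6 ± 3.01 in cultured libraries (SD, n = 3 each), above Smad6 at 1.65 ± 0.147 in tumour libraries and 0.435 ± 0.188 in cultured libraries (SD, n = 3 each). Smad4 was the highest SMAD per length in both groups, at 34.3 CPM per kb in tumour libraries and 40.6 in cultured libraries.

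Smurf1 was lower in tumour libraries. It lies on chromosome 5 from 144876495 to 144965847 and encodes a ligase first found through its action on SMAD1 and SMAD5. It stood at 139, 151 and 122 CPM in tumour libraries, against 387, 412 and 245 CPM in cultured libraries. The highest tumour library was below the lowest cultured one, with a change of -1.31 (SE 0.22, adjusted p = 0.00199). Smurf2, its paralog, stood at 139, 155 and 129 CPM in tumour libraries and 229, 145 and 204 CPM in cultured libraries. These overlapped in cultured library 2, and the change of -0.43 was not called (SE 0.20, adjusted p = 0.11). Smurf2 was called lower without cultured library 2 (adjusted p = 0.0174), with median centring (adjusted p = 0.0266) and with library weights (adjusted p = 0.0187). Bmp2k, a kinase named for its induction by BMP2, and Tgfbrap1, a receptor-associated adaptor, were not called, with changes of 0.51 and 0.14, though Bmp2k was called higher without cultured library 1 (adjusted p = 0.0373).

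The start sites of an inhibitory SMAD, a latency protein and a SMURF whose levels were apart between the groups are shown here, from RefSeq on GRCm38.p6, since SMAD proteins are known to bind the letters GTCT and its complement in DNA. A window was matched by symbol for 35 of the 51 members, 45 windows in all. Each of those searched runs from 250 bases before a start to 50 after it, and the sequences are printed to base 20 after the start, on the strand of the gene. Capitals mark CAGAC or its reverse complement GTCTG (the core of the SMAD3 and SMAD4 site), TGANTCA (the AP-1 site), GGCGCC (a GC-rich site of BMP SMADs) and the palindrome GTCTAGAC, all searched on both strands. The palindrome was added after the windows had been read. The printed starts were picked without a rule. They include the only family windows with the palindrome and with TGANTCA, and none with GGCGCC.
Smad6, chr9:64022040-64022309, minus strand: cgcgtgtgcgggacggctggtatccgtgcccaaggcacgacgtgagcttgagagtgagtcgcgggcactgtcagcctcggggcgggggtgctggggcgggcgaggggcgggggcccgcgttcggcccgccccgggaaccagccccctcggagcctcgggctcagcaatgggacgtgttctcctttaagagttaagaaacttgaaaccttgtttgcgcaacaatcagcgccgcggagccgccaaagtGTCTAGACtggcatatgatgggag
Ltbp3, chr19:5740650-5740919, plus strand: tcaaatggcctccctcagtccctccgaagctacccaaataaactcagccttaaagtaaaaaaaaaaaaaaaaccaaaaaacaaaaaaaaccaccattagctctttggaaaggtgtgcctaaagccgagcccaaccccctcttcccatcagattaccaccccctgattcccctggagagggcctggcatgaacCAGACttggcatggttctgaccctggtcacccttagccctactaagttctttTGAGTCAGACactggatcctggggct
Smurf1, chr5:144965811-144966080, minus strand: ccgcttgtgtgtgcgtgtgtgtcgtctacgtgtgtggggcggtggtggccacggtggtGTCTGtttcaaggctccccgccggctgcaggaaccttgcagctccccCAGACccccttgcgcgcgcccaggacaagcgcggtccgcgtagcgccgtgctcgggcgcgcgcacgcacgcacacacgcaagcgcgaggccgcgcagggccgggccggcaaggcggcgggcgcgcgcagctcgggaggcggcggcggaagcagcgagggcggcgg

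Smad6, higher in tumour libraries, held the palindrome GTCTAGAC across its start, which occurs in 70 of 32851 windows (0.213%) of all genes and in 1 of the 45 of this family. Ltbp3, also higher, held 2 copies of CAGAC, and the last of them shares bases with its TGANTCA site. Smurf1, lower in tumour libraries, held 1 copy of CAGAC in each orientation. In either orientation CAGAC was found in 24 of the 45 family windows (53.3%) and in 49.6% of all windows. TGANTCA stood in 1 family window (2.22%) and in 7.81% of all windows. GGCGCC stood in 14 family windows (31.1%), of 12 members, and in 11.9% of all windows. These are letters in a window and say nothing of binding.

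Of the 8 antagonists and relatives of follistatin, 6 were higher in tumour libraries, and Fstl3 and Nog were lower. Fstl1, on chromosome 16 from 37776873 to 37836514, encodes a secreted glycoprotein of mesenchymal cells related to follistatin. It stood at 220, 195 and 306 CPM in tumour libraries, against 0.258, 0.508 and 0.804 CPM in cultured libraries. It was 459-fold higher by the ratio of means, with a log2 change of 8.92 (SE 0.41, adjusted p = 2.06e-06). Grem1, a BMP antagonist made by stromal fibroblasts, stood at 9.49, 8.64 and 6.59 CPM in tumour libraries and had 0 reads in culture, at least 337-fold higher. In the same tumour libraries all 11 fibroblast markers were called higher, with Col3a1 at 2483 ± 691 CPM (SD, n = 3) against 38 cultured reads and Dpt at 0 reads in culture. The fibroblast sum and Fstl1 were both highest in tumour library 3 and lowest in tumour library 2, whereas Grem1 was lowest in tumour library 3. The macrophage sum was also highest in tumour library 3 and lowest in tumour library 2. The part of fibroblasts in the levels of Fstl1 and Grem1 was not tested.

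Fst, follistatin, which binds activin almost irreversibly, was expressed in both groups. It stood at 27.8, 21.6 and 21.6 CPM in tumour libraries, against 8.49, 4.17 and 12.7 CPM in cultured libraries, with no overlap. Its change was 1.62 (SE 0.39, adjusted p = 0.0111). Fstl3, a close relative with the same ligands, was called lower, at 13.2, 18.2 and 11.9 CPM in tumour libraries, against 23.0, 23.2 and 19.5 CPM in cultured libraries. Its change was -0.62 (SE 0.22, adjusted p = 0.0491). The call for Fstl3 was lost without a variance trend (adjusted p = 0.0563) and without tumour library 1 (adjusted p = 0.165), tumour library 3 (adjusted p = 0.193), cultured library 1 (adjusted p = 0.107) or cultured library 2 (adjusted p = 0.0968). Its exons overlap those of Prss57 on the other strand over 47.3% of their length, so its counts are uncertain. Nog, which encodes the BMP antagonist noggin, was lower at a very low level, with 11 reads over the tumour libraries and 64 over the cultured libraries. Its change was -2.35 (SE 0.44, adjusted p = 0.00335), and no tumour library reached the lowest cultured one. With so few tumour reads, noggin was in the table through its cultured reads, so its lower level in tumour libraries is not independent of its presence there. Chrd, chordin, had 94 reads in tumour libraries and 26 in cultured libraries and was called at 2.44 (SE 0.78, adjusted p = 0.0345). That call was lost without any 1 tumour library (adjusted p = 0.0617 to 0.106) or cultured library 1 (adjusted p = 0.0629), and its change was -1.69 after quantile normalization. Chrdl1, a chordin-like antagonist, had 129 reads in tumour libraries and 3 in cultured libraries, a ratio of 45.7 (95% counting interval 15.3 to 225), and its call was lost after quantile normalization (adjusted p = 0.291). Chrd and Chrdl1 were in the table through their tumour reads, so their higher levels there are not independent of their presence.

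The pathway list and the target lists below were drawn up with earlier results of these data known. Their counts describe the lists and are no independent test against the share of all genes. Other genes of the pathway were taken from a list of 50, of which 39 were in the table. Of these, 22 were higher and 8 lower in tumour libraries, beside 29.5% and 18.8% of all genes, with a median change of 0.96, against 0.08 over all genes. Of the 39, 9 had under 61 cultured reads and all 9 were called higher, a direction that their place in the table largely fixed. Among the other 30, 13 were higher and 8 lower, with no share of all genes at that floor to set beside them. With median centring 21 of the 39 were higher and 10 lower (median 0.74), and after quantile normalization 19 were higher and 12 lower (median 0.23). The 4 with the largest change were Nrros, Lrrc32, Aspn and Fbn2. Nrros and Lrrc32 (GARP) encode membrane anchors of latent TGF-beta, on myeloid cells for Nrros and on regulatory T cells, platelets and endothelium for Lrrc32. Nrros stood at 87.1 ± 20.8 CPM in tumour libraries (SD, n = 3) with 1 read in culture, and Lrrc32 at 20.7 ± 3.31 CPM (SD, n = 3) with 0. All 12 macrophage markers were called higher in the same libraries, and the part of myeloid cells in the level of Nrros was not tested. Aspn, a small proteoglycan, and Fbn2, a microfibril protein, also had 0 cultured reads.

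Several listed genes that were expressed in both groups, chosen after their values were seen, bear on the same steps. Furin, the protease that cuts the TGF-beta precursor, stood at 431 ± 80.5 CPM in tumour libraries and 124 ± 17.9 CPM in cultured libraries (SD, n = 3 each), a change of 1.79 (SE 0.20, adjusted p = 0.000189). Thbs1, an activator of latent TGF-beta, changed by 2.12 (SE 0.60, adjusted p = 0.0216), and Itgb6, the beta subunit of an integrin that activates latent TGF-beta on epithelium, by -1.10 (SE 0.31, adjusted p = 0.0211). Usp15, Trim33, Strap, Nedd4l, Zfyve9, Map3k7 and Ppm1a, regulators of receptors and SMADs inside the cell, were the other lower genes, with changes between -1.05 and -0.48. The SMAD corepressor genes Ski and Skil were higher, by 1.06 (SE 0.18, adjusted p = 0.00187) and 1.22 (SE 0.28, adjusted p = 0.00876).

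Of 30 genes known as TGF-beta targets, 24 were higher and 1, Itgb6, was lower in tumour libraries, beside 29.5% and 18.8% of all genes, with a median change of 1.79. Of the 30, 4 had under 61 cultured reads and were called higher, a direction that their place in the table fixed. That leaves 20 higher and 1 lower among 26, with no share of all genes at that floor beside them. Without the family members and fibroblast markers among the 30, 20 of 26 were higher and 1 was lower. These 26 still hold the 4 with under 61 cultured reads, Acta2 among them. Postn and Tagln, at means of 1.66 and 0.728 CPM in cultured libraries, also stay. The count therefore cannot separate targets in 4T1 cells from RNA of host cells. The 4 with the largest change were Acta2, Col1a1, Bambi and Tgfbi. Cultured libraries held 8 reads of Acta2, 160 of Col1a1 and 0 of Bambi. Tgfbi, a matrix adhesion protein, stood at 1025 ± 212 CPM in tumour libraries and 3.06 ± 1.33 CPM in cultured libraries (SD, n = 3 each). Among targets that culture also expressed, Ctgf, a matricellular protein, was not called, at 235 ± 62.0 CPM in tumour libraries and 267 ± 117 CPM in cultured libraries (SD, n = 3 each; adjusted p = 0.837). The 14 immediate early genes, a group that tissue dissociation is known to induce, summed to 10380 to 12928 CPM in tumour libraries and 1104 to 2436 CPM in cultured libraries, and Junb stands in both lists. Their part in the target counts was not tested.

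Of 20 genes known as BMP targets 14 were in the table, and 10 were higher and 1, Nog, was lower, beside 29.5% and 18.8% of all genes, with a median change of 1.98. Grem1, Smad6, Smad7 and Nog are also members of the family, and Bambi and Smad7 are also among the TGF-beta targets. These counts are thus not separate from those above. Of the 14, 6 had under 61 cultured reads, and 5 of these were among the 10 higher, a direction that their place in the table fixed, as Nog was there only through its cultured reads. Among the 8 others, Nog included, 5 were higher and 1 lower, again with no share of all genes at that floor. After quantile normalization 7 of the 14 were higher and 2 lower, with a median of 0.87. The 4 with the largest change, Grem1, Bambi, Bmper and Msx1, had at most 1 cultured read each. The ID genes, early targets of SMAD1 and SMAD5 that block differentiation, had reads in both groups. Id2 stood at 255 ± 96.8 CPM in tumour libraries and 21.0 ± 15.5 CPM in cultured libraries (SD, n = 3 each), a change of 3.85 (SE 0.59, adjusted p = 0.00117). Id3 stood at 130 ± 20.6 CPM in tumour libraries and 52.7 ± 25.4 CPM in cultured libraries (SD, n = 3 each), a change of 1.42 (SE 0.36, adjusted p = 0.0139). Id1, at 35.1 ± 5.29 CPM in tumour libraries and 24.3 ± 27.0 CPM in cultured libraries (SD, n = 3 each), was not called (adjusted p = 0.225). Cultured library 3 lay above all tumour libraries for Id1, and the other cultured libraries lay below them. Id4 was low in both groups, with 74 reads over the tumour libraries and 43 over the cultured libraries, and was not called (change 0.87, SE 0.50, adjusted p = 0.19). The ID genes and Ctgf were chosen after their values were seen.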

How the data were processed

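RNA of 3 tumour and 3 cultured samples was sequenced from TruSeq RNA libraries of column-extracted total RNA, per the labels' protocols. Per the submitters' processing notes, the tools were HISAT, HTSeq and limma and the build mm10, with versions not given in the sources used here. The authors deposited log2 CPM values, which the deposited table's name gives as voom with TMM scaling. In that form 0.5 reads are added to each gene. Taking the lowest value of each library as 0 reads and solving for reads gave whole reads, within 0.01, in 100% of values, and CPM here are those reads over the scaled totals.

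The deposited log2 values of all 13912 genes entered a limma 3.58.1 fit (R 4.3.3) of tumour against cultured libraries with a variance trend, two-sided, with Benjamini-Hochberg adjustment at 0.05. The fit was tested on simulated reads. Members, roles and lists were chosen with earlier results of these data known. Any member may be named, and values of each library are given by a rule: up to 5 called members per role and direction with the largest change and a group mean of at least 4 log2 CPM, a preset core of genes, and up to 4 genes of each other list. Bmp2, Gdf3 and Bmp7 have such values outside this rule, and they and other genes of the lists named outside it were chosen after their values were seen. Folds against 0 reads use a floor of 3 reads over the group, and intervals (95%, exact) and floors cover counting error only, since reads are not independent molecules. Coordinates and exon lengths come from the GENCODE M21 annotation of GRCm38 (the same assembly as mm10), which held all 51 members. The alternatives were median centring, quantile normalization, a filter on a mean of at least 0 log2 CPM, 2 reads added, no variance trend, voom weights, library weights and leaving out each library. Some genes that enter the counts are not reported here by name.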

Additional observations from a re-analysis of the deposited data

How the results depend on the processing

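Of 29 called members, 19 kept their call under each of the 13 alternatives that could be computed for them: 17 higher, such as Tgfb1, Tgfb3, Tgfbr1, Smad7, Fst, Ltbp2, Ltbp3 and Bmp1, and 2 lower, Nog and Smurf1. Leaving out 1 library gave 21 to 26 higher and 2 to 7 lower members, beside 25 and 4. The lower count was 2 without tumour library 1, tumour library 3 or cultured library 1, and 7 without cultured library 3. The count of lower members was 9 with median centring, 13 after quantile normalization, 8 with library weights and 2 without a variance trend. With the filter on low values, which leaves 36 members, 15 were higher and 2 lower. After quantile normalization, changes of the other sign were called for Gdf9 (-3.41), Tgfbr3l (-2.72), Acvr2b (-1.50) and Chrd (-1.69), all at low levels. The cause was not tested. No paired analysis was possible because the numbers in the labels are not shared between the groups.

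Over all genes, 4099 were higher and 2612 lower, a share higher of 61.1%. That share was 48.1% with median centring (3546 higher, 3833 lower) and 35.2% after quantile normalization (2992 higher, 5513 lower). With the filter 2547 were higher, since fewer genes were tested. Leaving out 1 library gave 3301 to 4625 higher and 1520 to 3301 lower, the lowest without tumour library 3 and, at 1558, without tumour library 1. Lower genes of the listed pathway numbered 3 to 11 without 1 library, beside 8, with 3 without tumour library 3, 4 without tumour library 1 or cultured library 1, and 5 without tumour library 2. TGF-beta targets had 2 lower genes with library weights, and 0 to 1 without 1 library. BMP targets had 5 higher and 0 lower with the filter, 7 higher and 2 lower after quantile normalization, and 8 to 11 higher without 1 library. Counting error limits members with few reads, such as Nog, Gdf9, Bmp6 and Inhbe.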
